A study of Rattus norvegicus with 21 samples.

Results

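The genes described here encode the proteins of the cytosolic ribosome and were followed in the rat heart 24 h after coronary artery ligation. They were chosen by name: every gene symbol starting with Rpl or Rps and a digit, with Rpsa, the laminin receptor-derived small-subunit protein, and the stalk genes Rplp0 to Rplp2. Symbols marked as pseudogenes with -ps (15), those with an l and a digit at the end (17) and the S6 kinases (10) were left out. Of 17085 gene symbols, 74 matched, and 71 were left after symbols with identical counts in every library were kept once. Of these, 67 had enough counts to be tested, 39 named as large-subunit and 28 as small-subunit genes. Names alone set the 74 matches, and counts were used only to keep identical symbols once and to decide which could be tested.

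The cytosolic ribosome has a large subunit, which holds the peptidyl transferase centre, and a small subunit, which decodes the mRNA. Most of their proteins are made from mRNAs that carry a short run of pyrimidines at the very start of the transcript, the 5′ terminal oligopyrimidine (TOP) motif, through which mTOR signalling and the binding protein Larp1 control their translation together. Heart and skeletal muscle are known for a paralog of Rpl3, Rpl3l, that is made in striated muscle in place of Rpl3, the protein that reaches into the peptidyl transferase centre.

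All 21 libraries came from the infarct zone of Sprague Dawley rats, in 7 groups of 3, and their RNA was sequenced in bulk. The Sham group had the operation without the infarct. MI24h stands for a left anterior descending artery kept tied for 24 h, a permanent ligation. The tie was opened after 1 h in MI1h_R, with 23 h of reflow (early reperfusion), and after 6 h in MI6h_R, with 18 h of reflow (late reperfusion). An F marks 3 further groups, MI24h_F, MI1h_F and MI6h_F, one for each injury. The labels do not spell it out, although the series text speaks of fenofibrate, a PPARα agonist, as a pretreatment. There was no Sham group with F, and the labels name neither age nor sex nor whether the 3 libraries of a group came from separate animals, so p-values measure the spread between these libraries, which may be technical.

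Total counts ran from 12208041 to 18393795 per library. Genes of the mitochondrial genome took 33.5 to 38.5% of counts in Sham and 11.3 to 20.2% elsewhere, and the TMM scaling factors, which correct for such differences in composition, were 0.535 to 0.677 in Sham and 0.996 to 1.17 elsewhere. The members' counts and medians against Sham are therefore given under other scalings too, while single genes of other lists are given under TMM alone. The tissue label was checked with 10 cardiomyocyte markers, none at 0 in any library, whose summed level was 50990 to 102300 CPM in Sham and 2542 to 15260 CPM in the injured groups. Library 11 of Sham stood low for the ribosomal protein genes: 62 of the 67 were below their own mean over all libraries there, by a median of -0.68 on the log2 scale, while library 31 of Sham stood 0.46 above. The spread within Sham was thus as wide as many of the differences described below.

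On the length-scaled TPM, the 5 highest members by mean level were Rps29 (3970 TPM), Rps27 (2882), Rps20 (2560), Rplp0 (2543) and Rpl34 (2488). Rps29 and Rps27 are zinc-binding proteins of the small subunit, Rplp0 anchors the stalk that recruits elongation factors, and Rpl34 belongs to the large subunit. Most ribosomal proteins are present once per ribosome, yet their mRNA levels were spread widely. In the middle of the order stood Rpl9 (1415 TPM) and Rpl14 (1395), and some members were far lower. Rpl41, a basic peptide that bridges the subunits, had a mean of 104 TPM, Rpl37a 62.8 and Rps13, of the small subunit, 14.2. The 5 lowest were Rpl38, listed at 0 in every library together with Rpl36 and Rplp2, then Rpl35a (3 counts in all), Rpl37 (13 counts), Rps19bp1 (1.44 TPM) and Rpl39l (1.78). Rps19bp1 matched the rule by name but is a binding partner of Rps19 and no ribosomal protein. The counts of 14 tested members were shared exactly by 1 or more symbols outside the list, and Rpl36al and Rpl36a could not be told apart, so low or shared values of such genes with many processed copies are uncertain.

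The members moved together from library to library. Over the 64 members with a mean of at least 10 CPM, the median correlation of a member with the others was 0.628 across the 21 libraries, and it was over 0.5 for 52 of them. Within groups, after each group's mean was taken away, the median was 0.749. These values are descriptions, since all members share each library's scaling. The members least like the rest were Rpl10l (-0.37 across libraries), Rpl3l (0.08), Rps4y2 (0.26) and Rpl37a (0.30). The first 3 are paralogs of Rpl10, Rpl3 and Rps4x. The spread within groups was larger for members, with a median SD of 0.34 on the log2 scale, than for the 8105 genes at that level (0.27).

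Because the members moved together, their RefSeq promoters were read, and the stretch from 40 bases before to 20 after the transcript start is printed for 4 members with the letters CTTTC near the start and 3 without. Sequences and positions are from RefSeq on GRCr8, which is not the build of the counts, and capitals mark CTTTC on the gene's strand between 10 bases before and 15 after the start. Rpl19 and Rpl31 are large-subunit and Rps7 and Rps27 small-subunit genes.
Rpl19 (chr10:83519024-83519083, plus strand): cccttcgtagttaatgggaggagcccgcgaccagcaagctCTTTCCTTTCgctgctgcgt
Rpl31 (chr9:49143071-49143130, plus strand): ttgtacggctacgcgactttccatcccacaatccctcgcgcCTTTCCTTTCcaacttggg
Rps7 (chr6:50999426-50999485, minus strand): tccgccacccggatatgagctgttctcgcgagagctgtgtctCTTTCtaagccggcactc
Rps27 (chr2:177964587-177964646, minus strand): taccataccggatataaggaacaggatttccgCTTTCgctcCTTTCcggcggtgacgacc
Rpl3 (chr7:113507971-113508030, minus strand): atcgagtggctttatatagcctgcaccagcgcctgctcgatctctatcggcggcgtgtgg
Rpl3l (chr10:14258406-14258465, plus strand): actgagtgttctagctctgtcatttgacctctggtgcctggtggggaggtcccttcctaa
Rpl41 (chr7:1563478-1563537, minus strand): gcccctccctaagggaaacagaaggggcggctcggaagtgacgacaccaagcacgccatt
Of 71 members, 55 had a promoter in the table, and 20 of them (36.4%) held CTTTC in that window, against 757 of all 27457 promoters (2.76%). Its reverse complement GAAAG stood there in 0 of 55 members and 3.14% of all promoters. A C exactly at the start followed by 4 pyrimidines was found in 22 members (40%, against 2.63% of all), and 11 members had both. The table's start equalled an end of the RefSeq gene for 23 of the 55, so counts tied to the exact start depend on the transcript the table took. CCGGAAG, a core of ETS-factor sites, stood on either strand of the 300-base window in 17 members (30.9%, against 9.22%), and the E-box CACGTG, its own reverse complement, in 4 (7.27%, against 6.65%). TATAAA on the gene's strand, 40 to 15 bases before the start, was found in 2 members (3.64%, against 1.52%). Rpl3l, Rpl3 and Rpl41 lacked CTTTC in these letters, from which nothing follows about any factor.

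The share of all counts that fell on the ribosomal protein genes was lowest in Sham and highest in MI1h_R. It was 1.34, 2.85 and 1.73% in the Sham libraries and 2.64, 3.55 and 4.18% in MI24h. In MI1h_R it was 4.77, 4.58 and 4.34%, and in MI6h_R 3.96, 3.26 and 3.06%. With F the values were 3.07, 3.05 and 3.68% in MI24h_F, 4.13, 3.18 and 3.18% in MI1h_F and 3.03, 3.06 and 3.68% in MI6h_F. Of all counts, the 3 MI1h_R libraries lay above all 18 others, and the Sham libraries overlapped only with the lowest of MI24h. Of counts on nuclear genes alone, the group means were 3.07% ± 1.11 (SD, n = 3) in Sham, 4.13% ± 0.95 in MI24h, 5.40% ± 0.41 in MI1h_R and 3.99% ± 0.50 in MI6h_R, and Sham then overlapped with every injured group other than MI1h_R. The MI1h_R libraries no longer stood apart from all others on this scale. Library 41 of MI1h_R, at 4.927%, lay below library 41 of MI24h (5.083%) and library F1 of MI1h_F (4.935%).

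**Figure D1:**
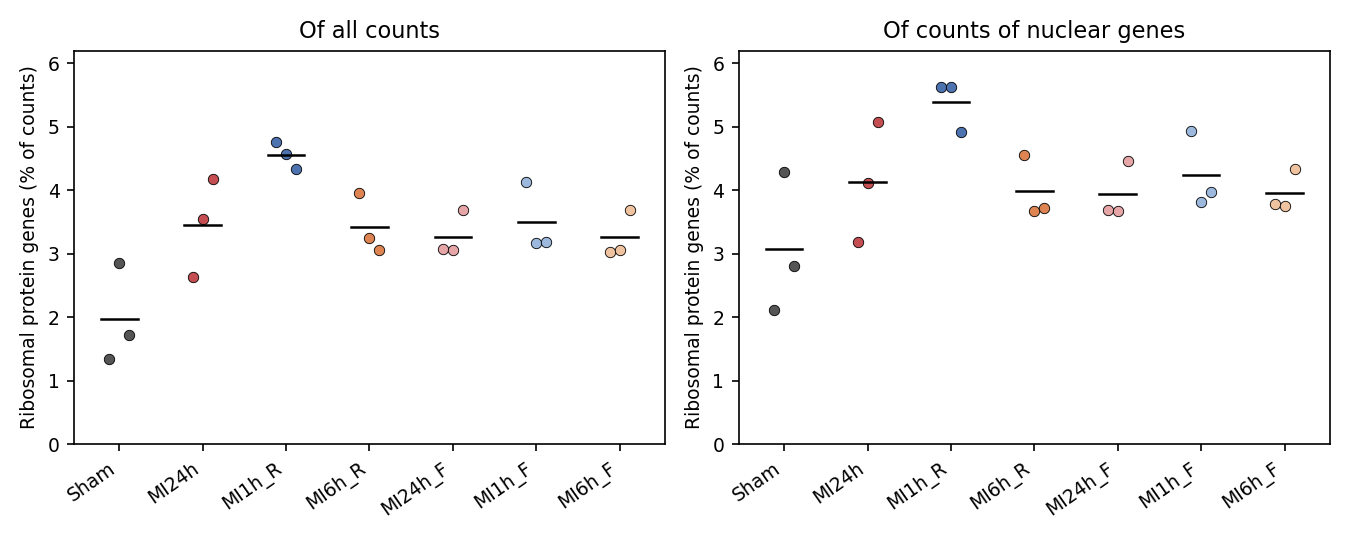
Share of counts on the 71 ribosomal protein genes (y axis, %), of all counts (left) and of counts on nuclear genes (right), by group (x axis, 3 libraries each, bars are means). MI1h_R has the highest mean in both panels, and Sham, with 33.5 to 38.5% of its counts on mitochondrial genes, has the lowest.

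Against Sham, most ribosomal protein genes did not pass the test after permanent ligation, while most ribosome assembly factors and mitochondrial ribosomal proteins did. In MI24h, 2 of 67 were higher and 1 lower (called by edgeR at the adjusted p threshold of 0.05), where 54.3% of all genes tested were called, 28.0% higher and 26.2% lower. Their median log2 fold change was -0.01, beside 0.07 over all genes, and 58 of 67 lay within 0.5 of 0, as did 35.2% of all genes. In MI6h_R, 1 was higher and 4 lower, with a median of -0.16, where 57.2% of all genes were called, 29.3% higher and 28.0% lower. In MI1h_R, 15 were higher and 1 lower, where 49.5% of all genes were called, 25.4% higher and 24.1% lower, and the median was 0.45, alike for the large (0.46) and the small subunit (0.44).

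These counts rested on the scaling and on single Sham libraries. By library size alone the higher members became 44 of 67 in MI24h, 61 in MI1h_R and 40 in MI6h_R. All genes moved too: 6484, 6597 and 6878 of 11742 were then higher, beside 3293, 2980 and 3438 under TMM. Their median became 0.80, 0.82 and 0.92, and the share of higher among all called genes went from 51.7, 51.3 and 51.2% to 81.2, 83.8 and 82%. Relative to all genes, the members' median was -0.01 against 0.07 in MI24h under TMM and 0.73 against 0.80 by library size, and in MI1h_R 0.45 against 0.06 and 1.22 against 0.82. On log2(TPM + 1) 54, 64 and 55 members were higher, as were 7375, 6741 and 7946 of all 11742 genes. The members' medians there were 1.05, 1.39 and 1.13, beside 0.83, 0.72 and 0.99 for all genes. With a smooth length trend removed, 15, 45 and 19 members were higher, as were 3234, 3112 and 3391 of all genes. In MI6h_R the sign of the members' median flipped from -0.16 to 0.69 by library size, 0.28 with mitochondrial genes taken out, 0.37 with the length trend removed and 1.13 on TPM. The median of all genes was 0.06 under TMM and 0.92, 0.48, 0.06 and 0.99 in that order. Relative to all genes, the members' median thus stayed lower by library size and with mitochondrial genes taken out. It was above that of all genes with the length trend removed and on TPM. Leaving out library 11 of Sham gave 4 higher in MI1h_R and leaving out library 31 gave 38. For MI24h the higher count was 0 without library 41 and 9 without library 31 of Sham, and 4 were lower without library 11. For MI6h_R 14 were lower without library 11 and 6 higher without library 31.

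**Figure D2:**
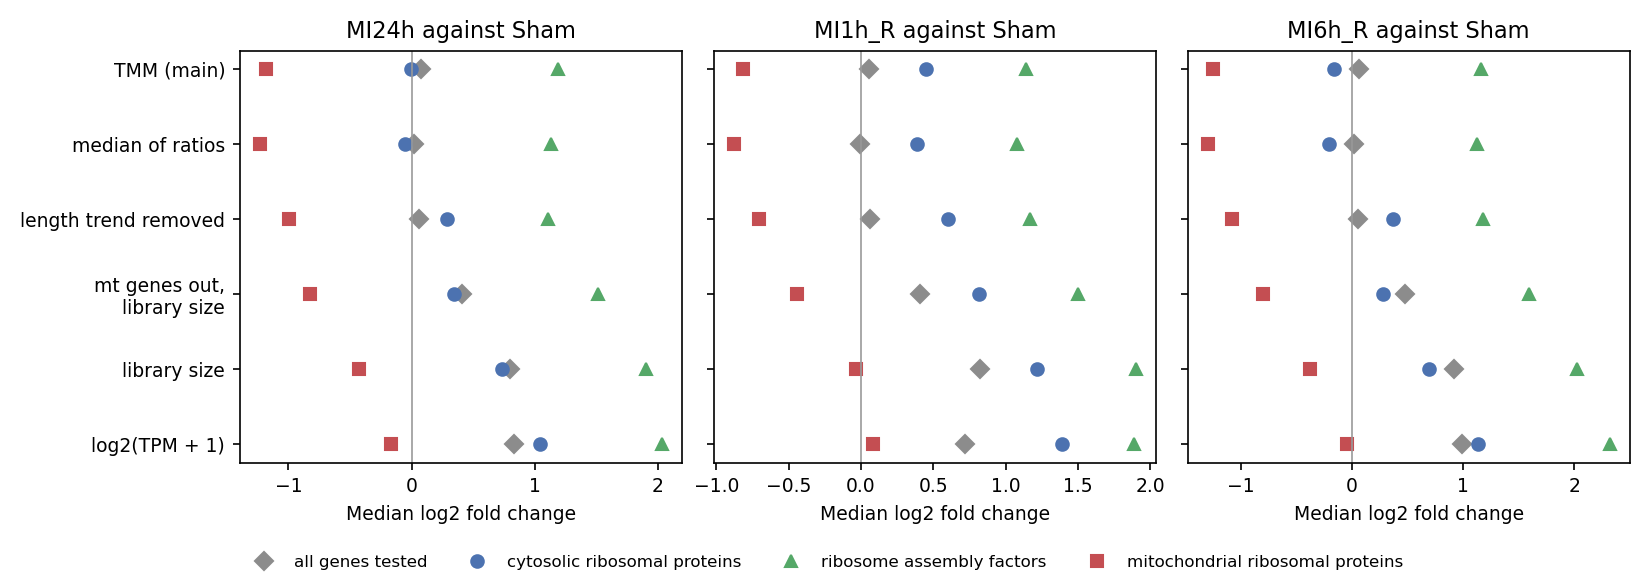
Median log2 fold change against Sham (x axis) for the cytosolic ribosomal protein genes, all genes tested, ribosome assembly factors and mitochondrial ribosomal proteins, under 6 ways of scaling (y axis), for MI24h, MI1h_R and MI6h_R. The cytosolic members lie close to all genes in MI24h and above them in MI1h_R on each scale, while the assembly factors stay on the right of both.

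The genes that build ribosomes and those of the mitochondrial ribosome lay apart from the cytosolic members. Of all genes tested, 28.0, 25.4 and 29.3% were higher and 26.2, 24.1 and 28.0% lower in MI24h, MI1h_R and MI6h_R. Of 50 assembly factors tested, 44 rose and 2 fell in MI24h, 42 and 0 in MI1h_R, and 43 and 3 in MI6h_R, with medians of 1.19, 1.14 and 1.17. They included Ddx21, a helicase of rRNA transcription and processing (log2 fold change 1.80 ± 0.15 SE, edgeR adjusted p = 1.54e-07 in MI24h), Utp20 of the small-subunit processome (1.80 ± 0.17, 3.39e-07) and Noc2l (1.49 ± 0.15, 5.25e-07). Nucleolin (Ncl), which binds pre-rRNA, was at 1.32 ± 0.18 (7.22e-06) and nucleophosmin (Npm1) at 1.00 ± 0.29 (0.00681). At least 42 of the 50 were called higher in these 3 comparisons under TMM, library size alone and TPM. Of the 67 mitochondrial ribosomal proteins tested, 59 were lower in MI24h and 0 higher, 49 and 0 in MI1h_R, and 61 and 1 in MI6h_R, with medians of -1.18, -0.82 and -1.25. Examples in MI24h were Mrpl16 (-2.25 ± 0.23, 6.95e-07) and Mrpl3 (-1.86 ± 0.19, 6.72e-07), both of the large mitochondrial subunit. Their direction from 0 depended on the scale: by library size alone 31 were lower and 1 higher in MI24h but 17 and 10 in MI1h_R (median -0.03), and on TPM the MI1h_R median turned to 0.09, with 16 higher and 11 lower. The MI1h_R median of all genes moved as well, from 0.06 under TMM to 0.82 by library size and 0.72 on TPM. Relative to it, the mitochondrial ribosomal proteins' median stayed lower on each of these scales. The 3 comparisons share the Sham libraries, and the part of cell composition in these values was not tested.

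Other parts of the translation apparatus changed in part. Beside the counts given here, 28.0, 25.4 and 29.3% of all genes were higher and 26.2, 24.1 and 28.0% lower in MI24h, MI1h_R and MI6h_R. Of 12 elongation and termination factors, 5, 7 and 5 rose and 2, 2 and 1 fell in MI24h, MI1h_R and MI6h_R. Eef1a2, the muscle form of the factor that brings aminoacyl-tRNA to the ribosome, was at -3.18 ± 0.54 (edgeR adjusted p = 8.52e-05), -3.18 ± 0.54 (0.000115) and -3.98 ± 0.56 (1.12e-05), while its widely made paralog Eef1a1 was at 0.77 ± 0.23 (0.00893), 0.94 ± 0.23 (0.0026) and 0.99 ± 0.23 (0.00144). Eef2, which moves the ribosome along, passed in none of them (0.27, -0.08 and 0.28). Of 25 RNA polymerase I and III subunits and factors, 11 rose and 1 fell in each of the 3 comparisons. Among 20 other TOP transcripts, 7, 10 and 7 rose and 3, 0 and 4 fell. Those that rose included Pabpc1, the poly(A)-binding protein (1.38 ± 0.20 in MI1h_R, 3.13e-05), and Hnrnpa1 (1.32 ± 0.18 there, 1.71e-05), whereas Tpt1 was lower in MI6h_R at -0.92 ± 0.22 (0.00152). Among 22 regulators, 10, 7 and 8 rose and 1, 2 and 1 fell, beside 28.0, 25.4 and 29.3% of all genes higher: Myc, which drives ribosome synthesis, was at 3.11 ± 0.48 (3.09e-05), 2.29 ± 0.46 (0.000523) and 3.04 ± 0.48 (3.22e-05), and Larp1 at 1.27 ± 0.22 (8.87e-05), 1.12 ± 0.22 (0.00036) and 1.48 ± 0.22 (1.73e-05), with Mtor at 0.07, -0.02 and 0.19 and not called. By library size alone more members of each of these lists were higher, 17, 18 and 17 of the 20 TOP transcripts for instance. On that scale 6484, 6597 and 6878 of all 11742 genes were higher too.

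The pair Rpl3 and Rpl3l showed the clearest change within the list. Rpl3l stood at 128, 155 and 268 CPM in the Sham libraries, at 8.45, 10.1 and 12.1 in MI24h, at 19.4, 11.5 and 10.03 in MI1h_R and at 5.91, 4.39 and 11.5 in MI6h_R. With F it was 2.87, 3.24 and 4.33 CPM in MI24h_F, 9.27, 14.6 and 17.6 in MI1h_F and 7.83, 1.94 and 1.97 in MI6h_F. No library of an injured group reached even 20 CPM, and the lowest Sham library lay at 128, so Sham overlapped with none of them. The log2 fold change against Sham was -4.16 ± 0.50 (SE) in MI24h (edgeR adjusted p = 2.65e-06), -3.76 ± 0.49 in MI1h_R (1.05e-05) and -4.66 ± 0.51 in MI6h_R (9.51e-07), which are 17.9, 13.5 and 25.2-fold lower levels. The call held under each of the alternatives in Sham comparisons, scalings and left-out libraries included, with values from -4.37 to -3.04 in MI24h, -4.09 to -2.79 in MI1h_R and -5.15 to -3.40 in MI6h_R.

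Rpl3 itself stood at 290, 912 and 372 CPM in Sham, 889, 1104 and 1262 in MI24h, 1440, 1549 and 1010 in MI1h_R and 1290, 1038 and 935 in MI6h_R. With F all 9 libraries lay between 1036 and 1240 CPM. Library 31 of Sham was thus inside the MI24h range and below all of MI1h_R and MI6h_R. The log2 fold change was 1.05 ± 0.30 in MI24h (edgeR adjusted p = 0.00685), 1.35 ± 0.30 in MI1h_R (0.00131) and 1.05 ± 0.30 in MI6h_R (0.00629). The call in MI24h was lost without library 41 of Sham (0.83, adjusted p = 0.0514), and on TPM the change was larger, at 2.22, 2.38 and 2.42.

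Per length, Rpl3l made up 45.6, 24.2 and 57.7% of the pair's TPM in the 3 Sham libraries and 0.305 to 2.99% in the 18 others. A share within the pair shows unequal change and not which of the genes moved, but the scaling of the library cancels from it. In the same comparisons 9, 8 and 9 of the 10 cardiomyocyte markers were lower and 1, 1 and 0 higher, with medians of -3.22, -3.02 and -3.91. The part that such markers have in the Rpl3l values was not tested, and in bulk tissue fewer cells of a type and less RNA per cell cannot be told apart.

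**Figure D3:**
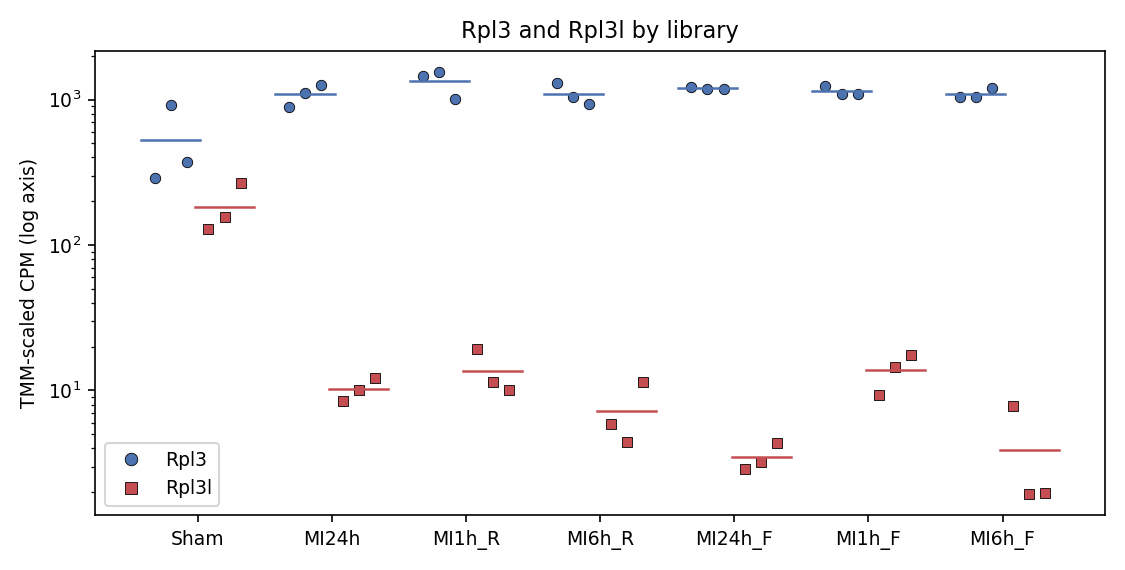
TMM-scaled CPM (y axis, log scale) of Rpl3 (circles) and Rpl3l (squares) in each library by group (x axis), with bars at the mean of 3 libraries. Rpl3l falls from 128 to 268 CPM in Sham to under 20 CPM in every injured library, while Rpl3 lies between 889 and 1549 CPM there.

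Among the other members called against Sham, Rps2, which lines the mRNA entry of the small subunit, stood at 517, 1303 and 901 CPM in Sham, 1149, 1536 and 1733 in MI24h, 1529, 1362 and 1585 in MI1h_R and 1738, 1227 and 1188 in MI6h_R. It was called in MI24h (0.70 ± 0.26, edgeR adjusted p = 0.0305) and MI1h_R (0.72 ± 0.26, 0.0292), 1.78 and 1.71 on TPM and both lost without library 11 or 41 of Sham. The first was also lost without library 21 or 41 of MI24h and the second without library 11 or 41 of MI1h_R. The MI1h_R members that rose with the groups apart also included Rps18 (0.98 ± 0.31, 0.0148), Rps24 (0.96 ± 0.30, 0.0137), Rpl27a (0.88 ± 0.27, 0.0122) and Rpl31 (0.85 ± 0.26, 0.0124). Rps24 is a small-subunit protein mutated in Diamond-Blackfan anaemia. Rps18 stood at 110, 340 and 271 CPM in Sham and 436, 460 and 524 in MI1h_R. Without library 11 of Sham these 4 were no longer called, at 0.62, 0.72, 0.62 and 0.60 in that order. On TPM the values of the 4 were 2.01, 1.77, 1.82 and 1.78. Rps24 was also lost without library 31 and Rpl27a without library 41 of MI1h_R. Rplp0, often used as a reference gene, was not called in any of the 3 comparisons (0.16, 0.29 and 0.03): it stood at 1257, 2721 and 1908 CPM in Sham and 1806, 2111 and 2657 in MI24h. On TPM its Sham libraries, at 962, 1827 and 986, lay below all 18 others, which ran from 2296 to 3439. Rpsa was likewise not called, at 0.28, 0.43 and 0.20, but without library 31 of Sham it was called in all 3 (0.64, 0.80 and 0.58, edgeR adjusted p = 0.0209, 0.00642 and 0.0321), as Rplp0 was in MI1h_R (0.62, 0.0309). By library size alone (1.00, 1.18 and 1.05) and on TPM (1.34, 1.38 and 1.47) Rpsa was called in all 3 as well. Rpl22, a protein whose loss is buffered by its paralog, was not called either, at -0.01, 0.34 and -0.21.

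Among the injured groups without F, most members stood highest after early reperfusion, though few passed the test. Against MI6h_R, 65 of 67 log2 fold changes in MI1h_R were above 0, with a median of 0.54 beside 0.01 for all genes. For 33 members all 3 MI1h_R libraries lay above all 3 of MI6h_R, as they did for 13.2% of all genes, and for 0 members below, as for 11.5% of all genes. Of the 67, 6 passed the test as higher and 0 as lower, where 2.41% of all genes passed, 1.26% higher and 1.15% lower: Rpl41, Rps28, Rps29, Rps27, Rpl32 and Rpl36al. Against MI24h, 65 of 67 were again above 0 with a median of 0.41, 3 were called (Rpl41, Rps28 and Rps29, where 4.32% of all genes were called, 1.51% higher and 2.81% lower), and 17 lay wholly above, as did 11.1% of all genes. The count against MI6h_R was 1 without library 11 or 21 of MI6h_R, 10 without library 41 of MI1h_R and 15 in DESeq2, and that against MI24h was 1 without library 11 or 21 of MI24h. Between MI6h_R and MI24h, 7 of 67 log2 fold changes were above 0, and edgeR called 0 of 67 (0.502% of all genes, 0.111% higher and 0.392% lower), as did DESeq2. Rpl17 and Rps4y2, named for this alone, were the 2 with an unadjusted p under 0.05, and the median was -0.17. The first 2 comparisons share the MI1h_R libraries. Beside these values, the summed level of 5 dividing-cell markers was 483 to 670 CPM in MI1h_R, 284 to 416 in MI24h and 376 to 409 in MI6h_R, and that of 8 neutrophil markers 467 to 887, 479 to 2976 and 1162 to 1303. With F the dividing-cell sum was 550 to 760 CPM in MI1h_F, 453 to 521 in MI24h_F and 532 to 634 in MI6h_F. In MI1h_F against MI1h_R the members' median was -0.45. None of these tested markers was at 0 in any library. Their part in the result was not tested.

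All but 1 of the members called there have a very short effective length. Relative length, the log2 of counts over TPM set to 0 at the median gene of a library, follows the effective length behind the authors' TPM and not the transcript length itself. It was -5.39 for Rps29, -4.96 for Rpl39, -4.67 for Rps28, -4.65 for Rps27, -4.36 for Rpl41 and -4.24 for Rpl32. These effective lengths are 18.9 to 41.9-fold below that of the median gene. These 6 were taken as the short members, with a limit at -4 set after the values were seen, and the next, Rpl34, lay at -3.51. Rpl41 stood at 12.9, 23.2 and 110 CPM in MI1h_R, at 4.72, 7.01 and 6.91 in Sham, at 2.48, 3.48 and 3.91 in MI24h and at 1.99, 2.11 and 2.15 in MI6h_R. All MI1h_R libraries were above all others, and library 41 lay far above its own group, with 1737 counts beside 166 and 320. Its log2 fold change in MI1h_R was 4.55 ± 0.64 against MI6h_R (edgeR adjusted p = 0.00395), 3.89 ± 0.62 against MI24h (0.00254) and 2.97 ± 0.59 against Sham (0.000459). Without library 41 these were 3.11 (0.00596), 2.45 (0.00639) and 1.54 (0.00661), so the call held and the size did not. On TPM the 3 libraries were at 147, 211 and 1361 and those of MI6h_R at 31.8, 30.8 and 28.2.

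Rps28 followed the same order, with 71.0, 75.4 and 245 CPM in MI1h_R, 22.6, 15.03 and 29.1 in MI24h and 15.1, 13.4 and 15.3 in MI6h_R. Its log2 fold change was 3.16 ± 0.62 against MI6h_R (edgeR adjusted p = 0.0178) and 2.56 ± 0.61 against MI24h (0.0233), the first lost without any 1 library of MI6h_R (3.10 to 3.19, adjusted p = 0.0513 to 0.102). The second was lost without library 41 (1.72, 0.0659) or without library 11 or 21 of MI24h. Rps29 stood at 235, 329 and 678 CPM, against 89.1, 81.9 and 152 in MI24h and 68.3, 60.3 and 66.2 in MI6h_R. It differed by 2.67 ± 0.49 (0.0139) from MI6h_R, lost without library 11 or 21 of MI6h_R (2.71 and 2.62, adjusted p = 0.0607 and 0.0912). From MI24h it differed by 1.94 ± 0.48 (0.0274), lost without library 31 or 41 of MI1h_R or 11 or 21 of MI24h (1.39 to 2.08). Rps27 was at 301, 505 and 367 CPM in MI1h_R and 81.8, 84.1 and 89.1 in MI6h_R, a difference of 2.20 ± 0.45 (0.0195) that was lost without library 31 of MI1h_R or any 1 of MI6h_R (1.98 to 2.24). Rpl32, at 65.3, 61.5 and 161 against 26.1, 28.5 and 29.0, and Rpl36al, at 144, 177 and 288 against 60.8, 54.5 and 61.0, passed narrowly (0.0459 and 0.0489) and were lost when any 1 of the 6 libraries was left out. Rpl39, which lines the exit tunnel, was not called against MI6h_R or MI24h, and library 41 was low for it, with 34.0 CPM beside 117 and 159. Without library 41 it was called against MI6h_R (2.75, edgeR adjusted p = 0.038) and not against MI24h (1.90, 0.118). Library 41 was therefore high for Rpl41, Rps28, Rps29 and Rpl32 and the lowest of its group for Rpl39, Rplp0 and Rpl26.

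**Figure D4:**
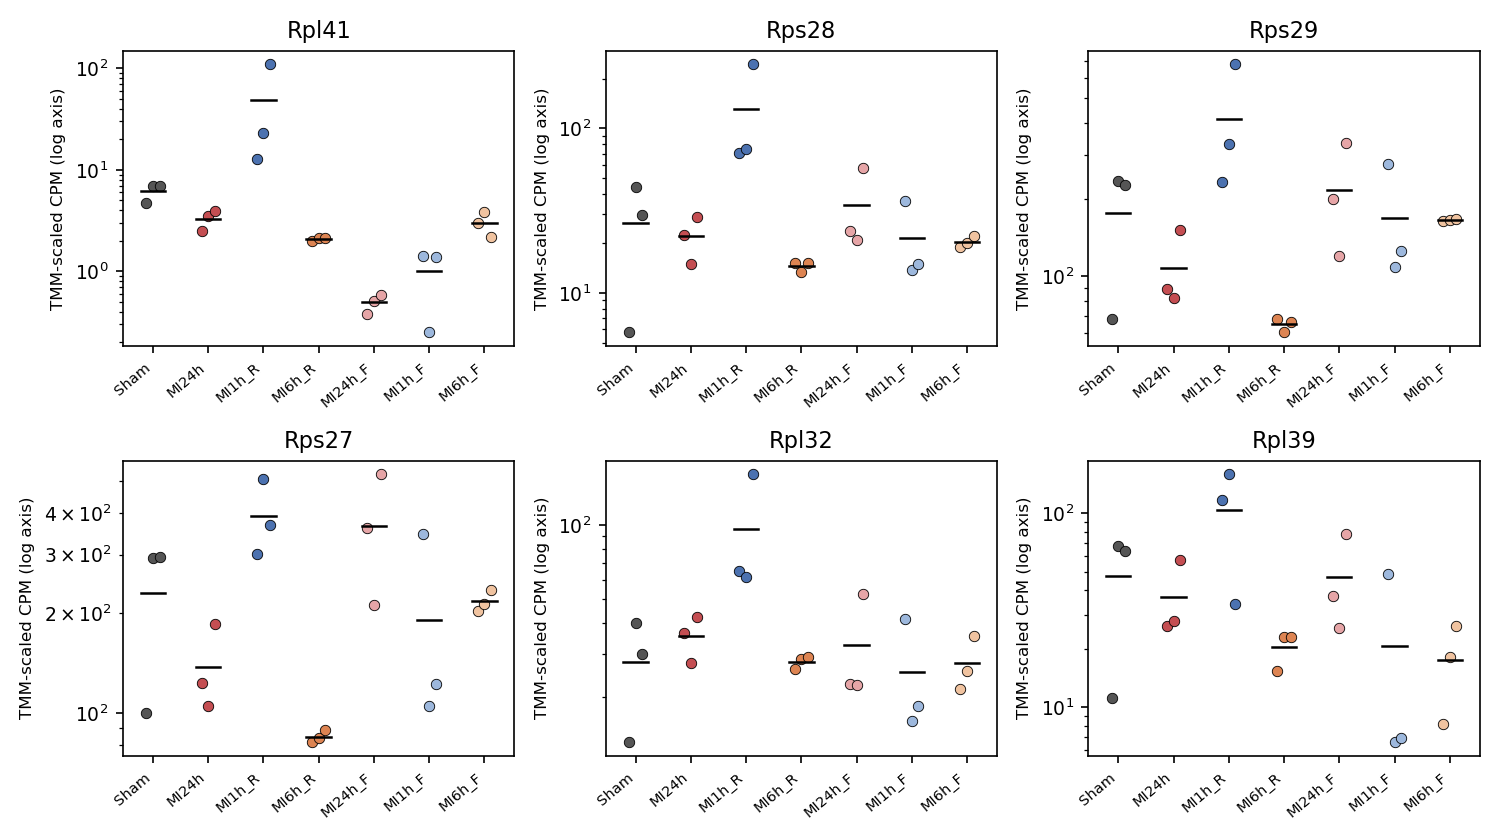
TMM-scaled CPM (y axes, log scale, each panel its own range) of the 6 members with the shortest effective length in each library by group (x axes), with bars at the mean of 3 libraries. MI1h_R is highest for Rpl41, Rps28 and Rpl32, its library 41 (right-hand point) is the top point for Rpl41, Rps28, Rps29 and Rpl32, and MI6h_R is low throughout for Rps29 and Rps27.

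The size of the difference went with length across the members. Over 67 members the correlation of log2 fold change with relative length was -0.65 for MI1h_R against MI6h_R, -0.60 against MI24h and -0.37 against Sham, and 0.50 for MI1h_F against MI1h_R, values that share libraries and are given as descriptions. Over all tested genes with a relative length, the same correlations were -0.26, -0.13, 0.03 and 0.24 in that order. The 6 short members had a median of 2.50 against MI6h_R and the 61 others one of 0.50. The other members were thus also mostly above 0, and with the length trend removed from each library the median of all 67 fell from 0.54 to 0.24 and 4 were called. The effective length that the authors' TPM carries also moved between libraries for short genes: the median relative length of the short members other than Rpl41 ran from -5.03 in library 11 of MI6h_R to -4.12 in library F4 of MI24h_F. Its SD over libraries was 0.29 for Rps29 and 0.02 for Rplp0. In MI1h_R it was -4.75, -4.50 and -4.73, so library 41 did not stand apart in it. Library handling of short fragments and RNA quality were not measured in the files used here, and their part in the result was not tested.

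**Figure D5:**
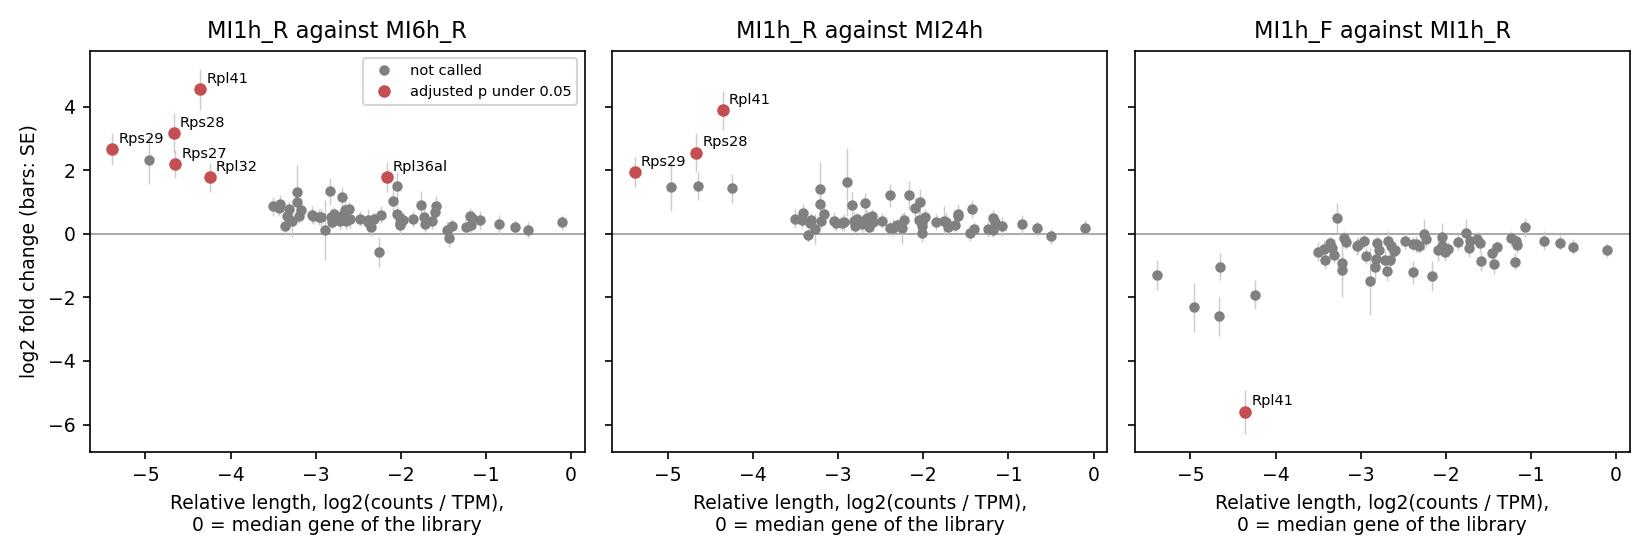
Log2 fold change (y axis, bars are SE) of the 67 tested members against relative length (x axis, log2 of counts over TPM, 0 at the median gene) in 3 comparisons, with called members named. The shortest members, at the left, differ most, upward in MI1h_R against MI6h_R and MI24h and downward in MI1h_F against MI1h_R.

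Against Sham, 3 of the 6 short members were lower in late reperfusion and the highest of the 6, Rpl32, was at 0.01. Rps27 stood at 100, 292 and 295 CPM in Sham and 81.8, 84.1 and 89.1 in MI6h_R (-1.43 ± 0.44, edgeR adjusted p = 0.00941), and Rps29 at 68.2, 235 and 228 in Sham and 68.3, 60.3 and 66.2 in MI6h_R (-1.45 ± 0.47, 0.0143). Rpl41 was also lower (-1.57 ± 0.60, 0.0316). The MI6h_R libraries lay below all of Sham for Rps27 and Rpl41, while for Rps29 they overlapped with library 11 of Sham. None of the 3 was called on TPM, where the values were 0.04, 0.05 and -0.24. Rps29 was not called without library 31 or 41 of Sham, and Rpl41 without any 1 library other than library 11 of Sham.

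Among the groups with F, few members differed between the injuries. Against MI24h_F, edgeR called 1 of 67 higher and 0 lower in MI1h_F, where 15.6% of all genes were called, 8.87% higher and 6.74% lower, and 0 of 67 in MI6h_F, where 0.485% were, 0.145% higher and 0.341% lower. The member called was Rpl3l, 3.96-fold higher in MI1h_F (1.99 ± 0.49, edgeR adjusted p = 0.0126), a call lost without library F1 of MI24h_F or F5 of MI1h_F. Cardiomyocyte markers moved beside it, at 9701 to 15260 CPM in MI1h_F and 2542 to 4447 in MI24h_F. MI1h_F against MI6h_F gave 0 calls among members and 0% of all genes in edgeR, 1 member higher in DESeq2 and 2 with an unadjusted p under 0.05: Rpl3l (1.82 ± 0.48, adjusted p = 0.234) and Rpl41 (-1.58 ± 0.65, 0.31). In MI6h_F against MI24h_F, 1 had an unadjusted p under 0.05, Rpl41 (2.59 ± 0.72, edgeR adjusted p = 0.144), and DESeq2 called 1 higher.

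Between matched injuries with and without F, the members' median was furthest from 0 after early reperfusion, where fewest of them were called. In MI1h_F against MI1h_R, 3 of 67 log2 fold changes were above 0 and the median was -0.45 beside 0.00 for all genes, with 27 members wholly lower, as were 14.0% of all genes. A single member passed, where 0.0766% of all genes did, 0.0255% higher and 0.0511% lower: Rpl41, at 1.41, 0.25 and 1.37 CPM in MI1h_F (22, 4 and 19 counts), was -5.60 ± 0.69 (edgeR adjusted p = 0.000993) and -4.16 without library 41 of MI1h_R (0.000389). Rps28 (-2.60 ± 0.61) and Rpl32 (-1.92 ± 0.46) had an adjusted p of 0.09. In permanent ligation, 1 member was higher and 5 lower with F, where 13.0% of all genes were called, 5.19% higher and 7.78% lower, and the median was -0.06. With the length trend removed the balance turned, to 7 higher and 3 lower with a median of 0.17. Rpl13, a large-subunit protein, stood at 247, 354 and 467 CPM in MI24h_F and 612, 728 and 934 in MI24h (-1.09 ± 0.29, 0.0215). Rpl15, at 249, 320 and 363 against 441, 528 and 694, differed by -0.84 ± 0.23 (0.0242) and Rpl28 by -0.80 ± 0.24 (0.0365). Rpl41 was at 0.38, 0.51 and 0.59 CPM in MI24h_F, from 5 to 8 counts a library (-2.72 ± 0.71, 0.0193), and Rpl3l fell by 1.56 on the log2 scale (0.0419). Beside it, 4 of 10 cardiomyocyte markers were lower and 0 higher, with a median of -1.36 and summed levels of 2542 to 4447 CPM with F and 7435 to 10770 without, whose part was not tested. Rps27 was the member that rose, with 360, 211 and 524 CPM against 123, 105 and 186 (1.40 ± 0.44, 0.0412). These 6 calls depended on single libraries, since without library 41 of MI24h or without F1 of MI24h_F none of the 6 was called, without F2 only Rps27 was, and leaving out any 1 library of the pair lost Rpl3l.

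In late reperfusion, 1 member rose and 2 fell with F, where 9.62% of all genes were called, 3.92% higher and 5.71% lower. Rps4y2, a paralog of Rps4x, stood at 30.0, 15.5 and 18.1 CPM in MI6h_F and 57.2, 43.3 and 52.4 in MI6h_R (-1.27 ± 0.29, edgeR adjusted p = 0.0141). Rps2, at 739, 677 and 885 against 1738, 1227 and 1188, differed by -0.85 ± 0.26 (0.0467) and was lost when any 1 library was left out. Rpl37a, at 24.6, 46.7 and 43.3 against 13.6, 11.1 and 12.02, was higher (1.64 ± 0.44, 0.0271). That call was lost when any library of the pair other than F1 of MI6h_F was left out, and Rpl37a shared its counts with a symbol outside the list. Without library 11 of MI6h_R or F2 of MI6h_F none of the 3 was called. Of the mitochondrial ribosomal proteins, 14 of 67 fell and 0 rose with F in permanent ligation, 3 rose and 5 fell in late reperfusion, and 0 were called in early reperfusion.

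Some genes of ribosomal proteins or their paralogs have names outside the rule. Fau, whose product carries the small-subunit protein eS30, stood at 230, 466 and 456 CPM in Sham, 296, 303 and 418 in MI24h and 405, 351 and 405 in MI1h_R, and was not called against Sham (-0.18, 0.01 and -0.49). Rps10l1 was called lower in MI6h_R (-3.69 ± 1.43, edgeR adjusted p = 0.0363). Its SE was wide beside the members' median SE of 0.265 in that comparison, and its level is not given here. Rpl22l1, the paralog of Rpl22, was not called against Sham (-0.36, 0.57 and -0.57), but it rose in MI1h_R against MI6h_R (1.14 ± 0.29, 0.0432) and with F in permanent ligation (1.15 ± 0.29, 0.0157) and late reperfusion (1.28 ± 0.29, 0.012). Rpl7l1 rose in all 3 comparisons with Sham, from 25.4, 18.5 and 15.7 CPM in Sham to 46.1, 44.7 and 42.2 in MI24h (1.16 ± 0.16, 1.18e-05), with 1.13 ± 0.16 in MI1h_R (2.33e-05) and 1.34 ± 0.16 in MI6h_R (2.32e-06). Its Sham libraries lay below every injured library.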

How the data were processed

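RNA of the infarct zone was sequenced in 21 libraries. Per the submitters' processing notes, reads were handled with STAR 2.7.3a, RSEM 1.3.1 and the genome build rn7. The authors deposited 1 table of estimated counts, read as such because RSEM is named and already whole numbers in the file, and 1 of TPM, which carries their effective-length scaling. Annotation and strand setting are not given in the sources used here.

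Counts were filtered with filterByExpr (11742 of 17085 symbols), TMM-scaled and fitted in edgeR 4.0.16 (R 4.3.3) by quasi-likelihood with 1 term per group over all libraries, giving 12 comparisons. Within each comparison the Benjamini-Hochberg adjustment ran over every gene tested, and an adjusted p under 0.05 was called. SE is the log2 fold change over the square root of its F statistic. The procedure was tested on simulated counts, with changes put into MI1h_R alone and read in MI1h_R against MI24h. Its outcome is not reported here. The simulation held no difference in composition such as that of Sham, so it does not speak to the comparisons with Sham. CPM values are on TMM-scaled library sizes, and correlations and SDs use log2(CPM + 1). Relative length needed 20 counts and 0.5 TPM.

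Alternatives were median-of-ratios factors, library size alone, mitochondrial genes taken out, DESeq2 1.42.0, limma 3.58.1 on log2(TPM + 1), no filter, a spline length trend (5 df) removed, a replicate block and each library left out.

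Named throughout are Rpl41, Rplp0, Rpsa, Rpl3, Rpl3l, Rpl22, Rps27, Rpl36al and Rpl39 (Rps6 and Rps27l were on the same list and are not analysed here), then up to 6 called members per direction with a mean of at least 10 CPM and no overlap, the list genes with the smallest p (up to 4), and the 5 highest and lowest TPM. Others were named after their values were seen, and some items are not reported here. Members, lists and comparisons were chosen with earlier results of these data known. Promoters came from RefSeq (GRCr8). Figures used matplotlib 3.10.9 under Python 3.11.15.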

Additional observations from a re-analysis of the deposited data

Results flagged for a closer look

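The effect of F on Rpl41 differed between the injuries. The F effect after early reperfusion minus that after late reperfusion was -6.13 ± 0.90 (SE) on the log2 scale, by an interaction contrast in edgeR (adjusted p = 0.022), and Rpl41 was the 1 gene of 11742 called in this contrast. The counts behind it were 22, 4 and 19 in MI1h_F, 166, 320 and 1737 in MI1h_R, 45, 56 and 33 in MI6h_F and 41, 35 and 39 in MI6h_R. The MI1h_R libraries lie above all the others and library 41 furthest, and MI1h_F lies below. The same difference against permanent ligation was -2.88 (adjusted p = 0.198).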

How the results depend on the processing

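Members higher against Sham (2, 15 and 1 in MI24h, MI1h_R and MI6h_R) became 44, 61 and 40 by library size alone, 11, 52 and 11 with mitochondrial genes also out, 54, 64 and 55 on TPM and 15, 45 and 19 with the length trend removed, and the 4 lower in MI6h_R became 1 under each of these. Of 11742 genes, 6484, 6597 and 6878 were higher by library size alone, and 4750, 4646 and 5196 of 11734 with mitochondrial genes also out. The numbers for all genes were 7375, 6741 and 7946 on TPM and 3234, 3112 and 3391 with the length trend removed. With the replicate block, which rests on shared numbers only (the best-correlated library carried the same number for 1 of 12 without F and 0 of 9 F libraries), 1 was higher in MI24h and 1 lower in MI6h_R against Sham, 1 higher in MI1h_R against MI24h, and 0 in MI1h_R against MI6h_R and in MI1h_F against MI24h_F. The block cannot be fitted between groups with and without F. DESeq2 gave 8 higher in MI1h_R against MI24h and 15 against MI6h_R, 1 each in MI6h_F against MI24h_F and MI1h_F against MI6h_F, 2 in MI24h_F and 4 in MI6h_F against their injuries without F, and 5 lower in MI1h_F against MI1h_R. Removing the length trend gave 5 higher in MI1h_R against MI24h, 1 lower in MI1h_F against MI24h_F, 7 higher and 3 lower in MI24h_F against MI24h, 3 lower in MI1h_F against MI1h_R and 5 higher in MI6h_F against MI6h_R, where 6 were lower on TPM and 1 without a filter. The cause was not tested.

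Leaving out 1 library gave 0 to 9 higher and 1 to 4 lower in MI24h against Sham, 4 to 38 higher in MI1h_R and 1 to 6 higher and 2 to 14 lower in MI6h_R. It gave 1 to 3 higher in MI1h_R against MI24h, 1 to 10 against MI6h_R, 0 to 1 higher and 0 to 2 lower in MI1h_F against MI24h_F and 0 to 1 higher in MI1h_F against MI6h_F. With F against without, it gave 0 to 1 higher and 0 to 5 lower in permanent ligation and 0 to 1 higher and 0 to 2 lower in late reperfusion.

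Where either fit made a call, signs turned for Rpl22 against Sham, in MI24h to 0.73 (library size) and 1.02 (TPM) and in MI6h_R to 0.65, 1.11 and 0.41 (length trend), for Rpl36al in MI24h to 1.14 (TPM), and for Rps27 and Rps29 in MI6h_R to 0.038 and 0.054 (TPM). Signs of values called in neither fit turned too, as in MI24h on TPM for Rpl39 (0.90), Rps27 (0.37) and Rpl41 (0.065). Of nuclear counts, the mean shares were 3.07% in Sham, 5.40% in MI1h_R, 3.99% in MI6h_R, 3.94% in MI24h_F, 4.24% in MI1h_F and 3.96% in MI6h_F. Rpl41 rested on 4 to 22 counts a library in MI24h_F and MI1h_F, which limits its folds there, and members at or near 0 could not be followed at this depth.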
